A study of Mus musculus with 2 samples.

Results

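The regions described are the promoters of 5972 protein-coding genes at which neither of 2 DNase-seq libraries listed a single accessible base. DNase-seq maps accessible chromatin by cutting nuclei with the enzyme DNase I, which cleaves open DNA far more readily than DNA wrapped on nucleosomes. Both libraries came from the right cerebral cortex of untreated male B6CASTF1/J mice aged 2 months, the F1 hybrid of the C57BL/6J and CAST/EiJ strains, and were labelled replicates 1 and 2 and animals 5 and 6. They form 1 group with no contrast. Their donor record is identical in the labels, and the differing animal numbers are what marks them as separate mice. A base was listed where the authors' false discovery rate per base was under 0.05. A gene of GENCODE M21 on chromosomes 1 to 19 was a member if no listed base of either library lay within 1000 bp of any of its annotated transcript starts. The 5972 members were 28.7% of 20807 genes, and 14835 genes had a listed base. Replicate 1 alone left 6139 genes (29.5%) without one and replicate 2 alone 6795 genes (32.7%). Of the genes outside the rule, 823 were empty in replicate 2 only and 167 in replicate 1 only. The members were chosen on the listed bases, so the absence of peaks at their starts is not a finding. Their families, sequence and distant peaks were not used by the rule. Neighbours entered it only where a listed base at another gene's start fell within 1000 bp of a gene's own start. The CpG ratio below is the number of CpG dinucleotides over the number that the C and G content would give, over the window of 1000 bp on each side of the 5′ end. A distal peak was a peak of the authors' stricter set more than 1000 bp from any annotated start, and it was counted as nearby if it lay in the gene body or within 20000 bp of the gene. Over all genes, 71.8% had at least 1 nearby distal peak in replicate 1 and 67.8% in replicate 2. With 1 group of 2 libraries no test between groups was possible, so shares are set beside those of the other genes and read against the difference between the libraries. Sequencing depth is unknown.

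A promoter is the stretch around a transcription start at which general factors and RNA polymerase II assemble, and an active one is depleted of nucleosomes and cut by DNase I. Many mammalian promoters lie in CpG islands, stretches that have kept the CpG dinucleotide because they are rarely methylated in the germ line, and these are open in most tissues whether or not the gene is strongly transcribed. Promoters poor in CpG belong largely to tissue-restricted genes and tend to be open only where the gene is used. Distal accessible sites, away from any start, include enhancers, insulators and unannotated promoters. Tissue libraries mix cell types, and a promoter open only in rare cells can stay below the threshold.

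The 250 bases before the 5′ end are shown for 5 members, CpG-rich and CpG-poor, and for Rpl36al, a ribosomal protein gene with a listed base, as a contrast. They were read from RefSeq's GRCm38.p6 on the strand of the gene, 5′ to 3′, with each CpG in capitals. Rbmxl2, an RNA-binding protein gene of male germ cells, had the highest CpG ratio of the named members (chr7:107209195-107209444, plus strand, 23 CpG). Dnah2, an axonemal dynein heavy chain gene, had the most nearby distal peaks by the lower count of the libraries (chr11:69549111-69549360, minus strand, 3 CpG). Gm7697 lay nearest the median CpG ratio of the members known by a Gm number (chr8:69522977-69523226, minus strand, 2 CpG). 1700022I11Rik did so for the Riken clone members (chr4:42969354-42969603, plus strand, 3 CpG), and Vmn1r165 for the vomeronasal type 1 receptor members (chr7:23217082-23217331, plus strand, 2 CpG). The Rpl36al promoter (chr12:69184084-69184333, minus strand) held 34 CpG.
Rbmxl2: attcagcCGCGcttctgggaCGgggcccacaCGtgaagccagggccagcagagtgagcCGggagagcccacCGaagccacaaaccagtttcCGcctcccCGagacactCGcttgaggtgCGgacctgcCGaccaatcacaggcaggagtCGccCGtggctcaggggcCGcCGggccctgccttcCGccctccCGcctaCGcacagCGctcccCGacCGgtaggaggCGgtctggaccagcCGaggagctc
Dnah2: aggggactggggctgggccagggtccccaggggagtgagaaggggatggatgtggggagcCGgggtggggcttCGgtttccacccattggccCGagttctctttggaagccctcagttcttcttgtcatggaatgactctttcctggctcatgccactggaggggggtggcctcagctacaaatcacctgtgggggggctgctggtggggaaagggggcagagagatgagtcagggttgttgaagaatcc
Gm7697: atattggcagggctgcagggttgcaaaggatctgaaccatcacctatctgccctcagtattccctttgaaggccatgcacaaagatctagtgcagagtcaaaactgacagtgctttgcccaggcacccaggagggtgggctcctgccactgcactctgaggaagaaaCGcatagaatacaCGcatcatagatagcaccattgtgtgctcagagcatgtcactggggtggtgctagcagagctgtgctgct
1700022I11Rik: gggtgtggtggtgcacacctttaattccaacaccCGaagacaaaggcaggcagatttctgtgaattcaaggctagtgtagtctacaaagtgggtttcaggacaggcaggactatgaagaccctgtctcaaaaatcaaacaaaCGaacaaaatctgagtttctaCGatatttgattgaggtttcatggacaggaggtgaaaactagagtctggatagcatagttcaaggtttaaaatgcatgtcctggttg
Vmn1r165: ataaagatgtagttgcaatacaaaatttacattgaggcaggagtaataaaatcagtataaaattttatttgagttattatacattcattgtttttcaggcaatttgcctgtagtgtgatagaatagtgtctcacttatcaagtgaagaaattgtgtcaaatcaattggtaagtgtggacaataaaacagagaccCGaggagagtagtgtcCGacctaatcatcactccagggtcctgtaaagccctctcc
Rpl36al: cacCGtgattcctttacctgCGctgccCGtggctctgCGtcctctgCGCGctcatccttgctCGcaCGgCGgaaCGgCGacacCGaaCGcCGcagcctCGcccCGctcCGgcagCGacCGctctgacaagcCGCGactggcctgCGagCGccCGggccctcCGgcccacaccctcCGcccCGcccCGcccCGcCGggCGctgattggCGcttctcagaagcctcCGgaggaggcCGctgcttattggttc
The capitals are dense in Rbmxl2 and Rpl36al and nearly absent from the other sequences. Rbmxl2 resembles Rpl36al in this respect, and the other 4 members are CpG-poor, as most of the set was. In the windows of Vmn1r165 and Gm7697 only 2.525% and 14.65% of short sequence words were found once in the genome. Their lack of listed bases is subject to the limit given below for duplicated sequence.

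The largest group of members were receptors of the nose. Olfactory receptor genes, each of which is used by a small share of olfactory sensory neurons, gave 1024 of 1128 genes without a listed base (90.8%), and they were 17.2% of all members. Vomeronasal type 1 receptors, which detect pheromones, gave 195 of 208 (93.8%) and vomeronasal type 2 receptors 112 of 119 (94.1%). The 3 families together made up 22.3% of members. Without them, 4641 of 19352 genes (23.98%) had no listed base. The neighbouring receptors Olfr125, Olfr126 and Olfr127 on chromosome 17 had their nearest listed base 27362, 41896 and 94850 bp from any start in replicate 1, and 30667, 34218 and 15543 bp in replicate 2. Vmn1r100, Vmn1r101 and Vmn1r103 on chromosome 7 were farther from any, at 335087, 359738 and 427679 bp in replicate 1. In replicate 2 their distances were 461070, 485721 and 553662 bp. These 3 genes lie in a run of 106 members described below. In its median window only 1.5% of short sequence words were found once in the genome. Their distances therefore cannot be told apart from an effect of dropped reads. The olfactory receptors outside the rule were thinly listed. Of the 104, a base was listed for 74 in replicate 1 and 69 in replicate 2, with a median of 129 and 118 listed bases, against 1260 and 1030 over all listed genes. Bases were counted around every annotated start, and the median number of transcripts was 3 in these receptors and 5 in all listed genes. A peak of the stricter set touched the window of 24 of them in replicate 1 and 22 in replicate 2. By the lowest false discovery rate in either library, 4.69e-29 in replicate 2, Olfr459 was the most firmly listed. It had 532 bases in replicate 1 and 913 in replicate 2. In replicate 1 its lowest rate was 3.44e-12, above the 1.14e-15 of Olfr1392. Among the vomeronasal genes Vmn1r4 stood apart, with 1253 and 1203 listed bases and a CpG ratio of 0.755, far above the 0.102 median of its family.

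Several other receptor families were mostly members too. Taste receptors gave 37 of 38 without a listed base, and Tas1r1, a subunit of the umami receptor, was the exception. Mas-related receptors of sensory neurons gave 17 of 20 and formyl peptide receptors 6 of 7. Trace amine-associated receptors gave 11 of 15, and 8 of those 11 had a distal peak nearby in each library, whereas 8 and 10 of the 37 taste receptors did.

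Genes of skin, hair and secretions were next. Late cornified envelope and small proline-rich protein genes, which build the outer layer of the epidermis, gave 34 of 36. Keratin-associated proteins of hair gave 51 of 57 and keratins, the intermediate filaments of epithelia, 43 of 53. Defensins, antimicrobial peptides of gut and epididymis, gave 59 of 64, secretoglobins 31 of 34, kallikrein proteases 24 of 26, and the major urinary proteins with the lipocalins 29 of 32. The surroundings differed between these families. Of the keratin members, 81.4% in replicate 1 and 67.4% in replicate 2 had a nearby distal peak, and of the kallikreins 58.3% and 62.5% did, whereas secretoglobins reached 6.45% in both libraries. The cornified envelope genes reached 14.7% and 17.6%. The family median of 31-base words found once in the genome was 32.8% in secretoglobins and 78.0% in kallikreins. In keratins it was 96.5% and in cornified envelope genes 91.7%. Whether distal peaks were lost in duplicated surroundings was not tested. Krt10, Krt9 and Krt222 were keratins with a listed base, and Krt10 had 1052 and 997 listed bases.

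Metabolic families of the liver were divided. Cytochrome P450 genes, oxidising enzymes of drug and steroid metabolism, gave 65 of 100. Cyp2c29 and Cyp2c38, members in the longest run of the family, had CpG ratios of 0.0627 and 0.0418. Those most firmly listed included Cyp46a1, the cholesterol 24-hydroxylase of neurons, with 1548 and 1504 listed bases and a ratio of 0.719, Cyp4f37, with 650 and 599 bases and a ratio of 0.0951, and Cyp51 of sterol synthesis, with 1971 and 1918 bases and a ratio of 0.659. Both CpG-rich and CpG-poor windows were thus among the listed ones. UDP-glucuronosyltransferases and sulfotransferases, which conjugate drugs and hormones, gave 17 of 21 each. Carboxylesterases gave 15 of 19. Serpins, a family of protease inhibitors, gave 44 of 60. Serpini1, the serpin secreted by neurons, was among the listed ones, with 1845 and 1952 bases. Serpini1 had a CpG ratio of 0.639, and Serpinb11, in the longest run of serpins, one of 0.104.

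Most reproductive and immune families also lay above the 28.7% of all genes. Prolactin-family hormones of the placenta gave 22 of 25, carcinoembryonic antigen and pregnancy-specific glycoproteins 25 of 28, and oocyte genes of the Oog, Obox, Oosp and zona pellucida kinds 17 of 19. No prolactin-family member had a nearby distal peak in either library. Membrane-spanning Ms4a genes gave 18 of 19 and type I interferon genes with their receptors 17 of 20. The interferon receptors Ifnar1 and Ifnar2, used by all cells, were both listed, with 1148 and 1103 bases in replicate 1. C-type and killer cell lectins gave 36 of 56, chemokines 20 of 36, interleukins 20 of 37 and MHC genes 15 of 34. Guanylate-binding proteins and related immunity GTPases, with 4 of 17, lay below it. Genes known by a Gm number gave 904 of 1226 and Riken clone genes 217 of 539. Members that fell under none of the symbol patterns numbered 2315, which was 15.5% of the 14966 such genes.

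**Figure D1:**
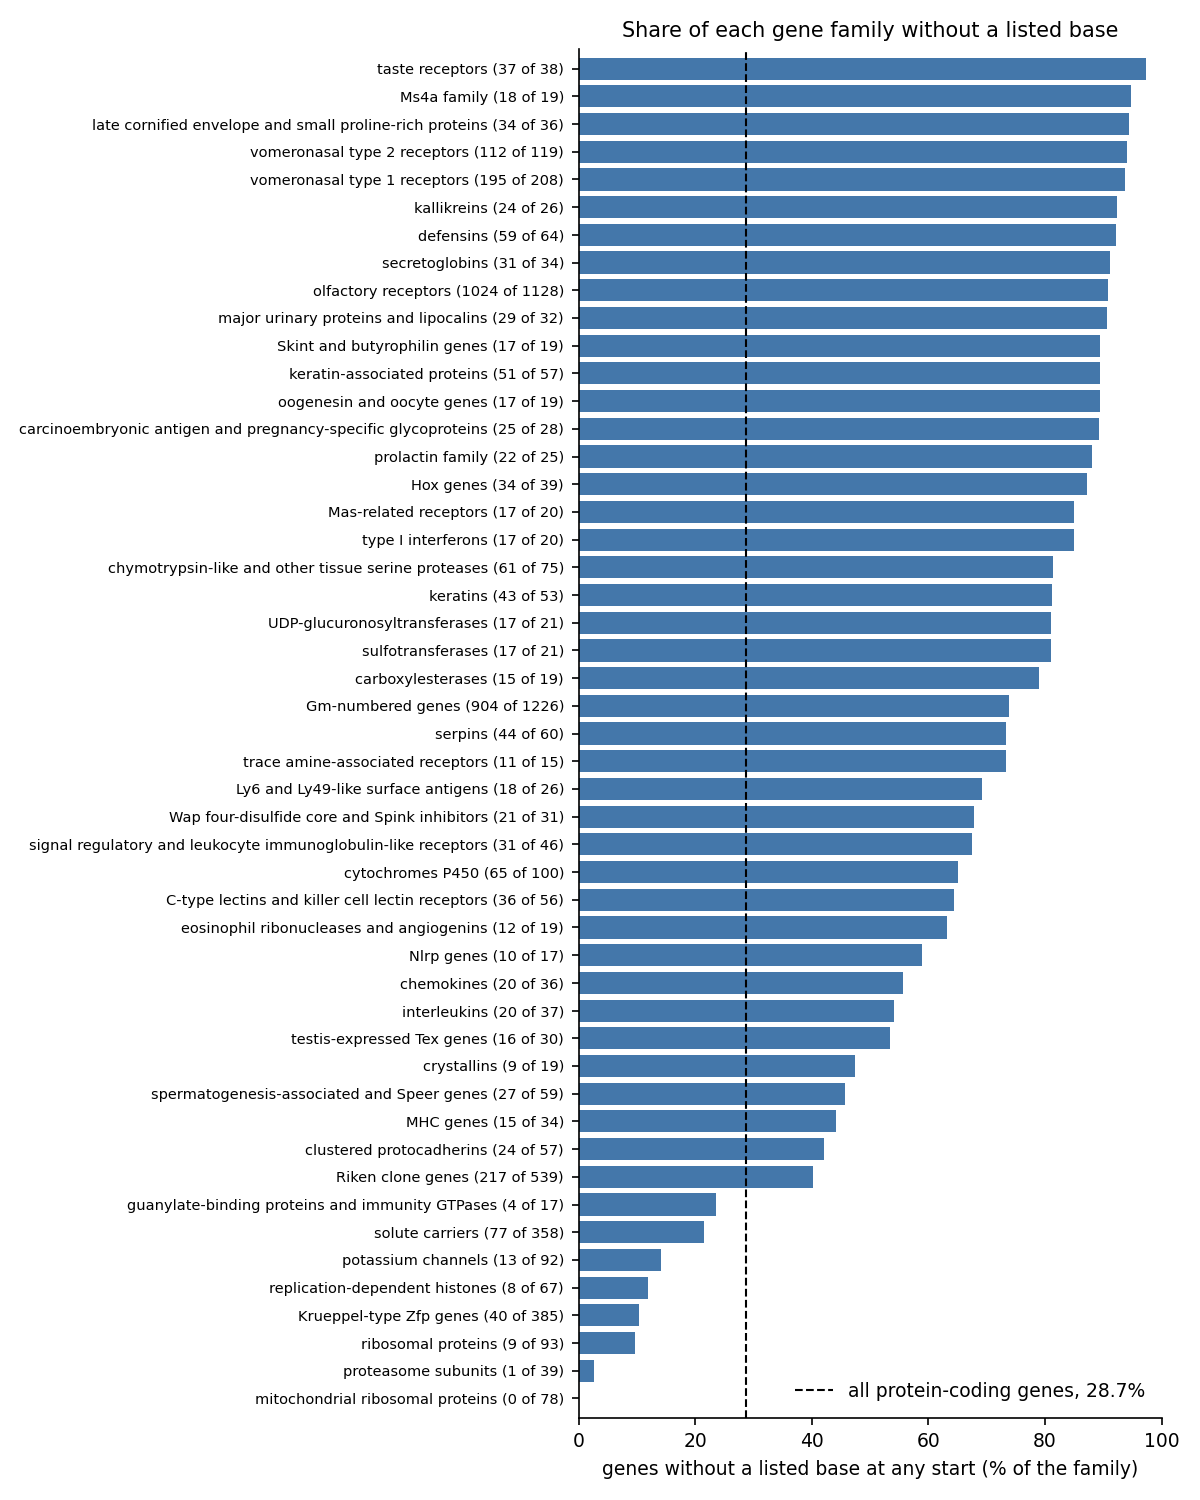
The bars give the percentage of each family's autosomal protein-coding genes without a listed base in either library, for families of 15 or more genes, with the counts beside the names and a dashed line at the 28.7% of all genes. Receptors of the nose and tongue and genes of skin and secretions lie at the top, and housekeeping families lie below the line. Families came from symbol patterns, and 3 patterns that also take in unrelated genes were not drawn.

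Housekeeping families, solute carriers, potassium channels and Zfp genes lay below the overall share. Mitochondrial ribosomal proteins gave 0 of 78. Proteasome subunits gave 1 of 39, and that gene was Psma8, a testis subunit, while replicate 1 alone left 2 empty. The ribosomal protein pattern, which also takes in S6 kinase genes, gave 9 of 93. These 9 were the copies Rpl10-ps3, Rpl36-ps4, Rpl36a-ps1, Rpl9-ps1, Rpl9-ps6 and Rps12-ps3 and the paralogs Rpl3l, Rpl10l and Rpl39l. Solute carriers gave 77 of 358, potassium channel genes 13 of 92 and Zfp zinc finger genes 40 of 385. The Zfp members were unlike the other Zfp genes in sequence, with a median of 13.4% of 31-base words found in a single copy in the genome, against 97.5% for the listed ones. Among subunits of inhibitory and excitatory receptors, the members were Gabra6, Gabrp, Gabrr1, Gabrr2, Gabrr3, Grin2c and Grin3b. Gabra6, an alpha subunit of cerebellar granule cells, had its nearest distal peak at 5918 bp in replicate 1 and 6054 bp in replicate 2. Grin2c, the NMDA receptor subunit typical of the cerebellum, had 2 distal peaks nearby in each library. Clustered protocadherins, cell-surface proteins that differ between neurons, lay above the overall share with 24 of 57 (42.1%), and replicate 1 alone left 29 of them empty and replicate 2 alone 34.

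Lists of marker genes describe which tissues the members belong to. Since membership is the listed bases themselves, these counts are a description and support nothing beyond it. None of 13 pan-neuronal genes, 10 cortical excitatory genes or 11 astrocyte genes was a member. Vip, the peptide of a class of cortical interneurons, was the only member among 14 inhibitory neuron genes, with its nearest distal peak 4578 bp away in both libraries. Opalin was the only one among 11 oligodendrocyte genes, with 4 and 3 nearby distal peaks. Microglial and macrophage genes were mostly members, 8 of 13. They were Ptprc, P2ry12, C1qb, C1qa, Tmem119, Tyrobp, Itgam and Csf1r, and 7 of the 8 had a distal peak nearby in each library. Ptprc had 5 such peaks in each. In a tissue library, few cells of a type and little cutting per cell cannot be told apart. Endothelial genes gave 4 of 12, among them Cdh5, the cadherin of endothelial junctions, with 3 and 4 distal peaks. Mural cell and meningeal genes gave 3 of 12. These shares, 33.3% for endothelial and 25% for mural and meningeal genes, lay near the 28.7% of all genes. In replicate 2 alone 6 of 12 genes were empty in each of these 2 lists, set against 32.7% of all genes. Some of these small counts rested on 1 library. Replicate 1 alone left 4 oligodendrocyte and 1 astrocyte gene empty. Replicate 2 alone left 4 inhibitory neuron, 3 oligodendrocyte, 2 astrocyte, 1 excitatory, 6 endothelial and 6 mural or meningeal genes empty. Genes of other tissues were often members. Liver genes gave 11 of 14, T and B lymphocyte genes 10 of 14, pancreas and intestine genes 9 of 12, epidermis and hair genes 8 of 11, male germ cell genes 9 of 14, erythroid genes 6 of 9, lens genes 6 of 9, retina genes 6 of 11, oocyte genes 5 of 9 and striated muscle genes 7 of 15. Alb, the albumin gene of liver, had its nearest distal peak at 7677 and 7841 bp.

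The members were much poorer in CpG than other genes. The median CpG ratio was 0.163 in members, with quartiles of 0.110 and 0.249, against 0.590 in genes with a listed base, with quartiles of 0.429 and 0.714. The upper quartile of members thus lay below the lower quartile of the other genes. Median GC content was 44.0% in members and 53.5% in the others, and CpG numbered 0.750 and 4.10 per 100 bp. The share of genes without a listed base fell at each step of the ratio. It was 87.8% of 1370 genes below 0.1, 52.8% of 2322 genes between 0.2 and 0.3, 10.2% of 1969 genes between 0.4 and 0.5 and 1.41% of 1768 genes at 0.8 and over. Each library alone gave the same order, at 90.3% and 91.0% in the lowest class and 1.41% and 2.88% in the highest. Genes with a base listed in 1 library only, 990 in number, lay between, with a median ratio of 0.308.

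**Figure D2:**
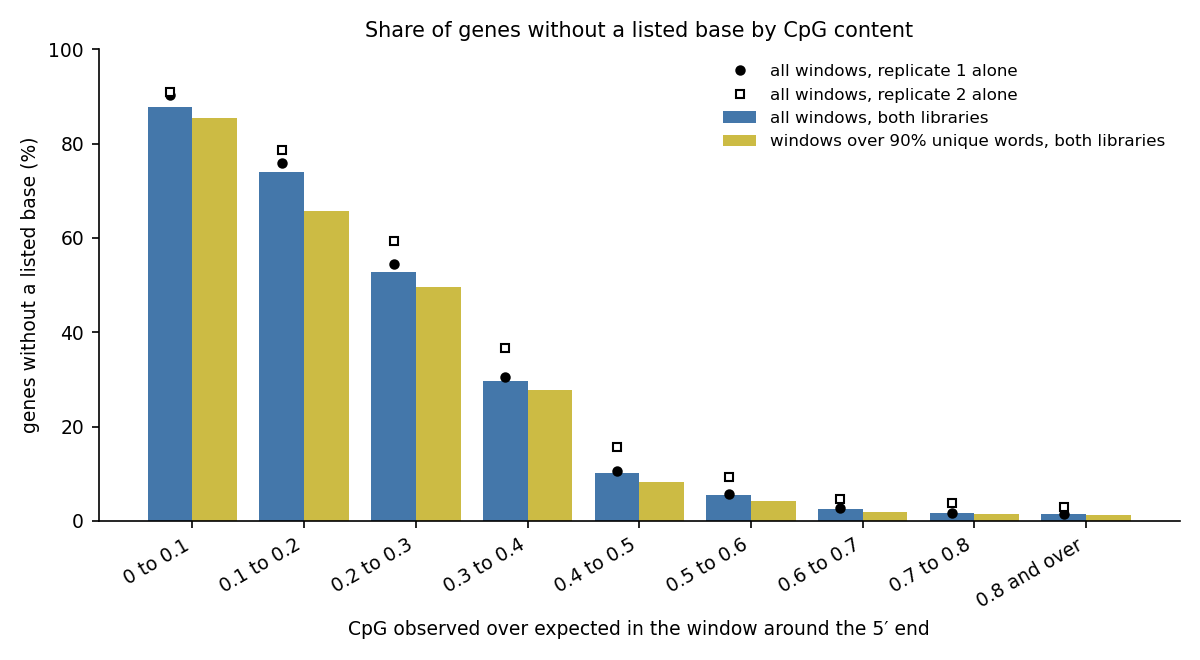
Bars give the percentage of genes without a listed base in either library (y axis) by CpG observed over expected in the window (x axis), for all windows and for windows with over 90% of words in a single copy, and points give each library alone over all windows. The share falls from left to right, with 87.8% in the lowest class and 1.41% in the highest over all windows, and 85.4% and 1.20% over the windows of single-copy sequence.

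A window was called CpG-rich at a ratio of 0.6 or more with GC of at least 50%, which held for 30.8% of all genes. Only 125 members met it (2.09%), against 6280 other genes (42.3%). Transcription factor genes of embryonic patterning stood out among the 125. Hox genes, which set position along the body axis, gave 34 of 39 without a listed base, and 17 of the 34 were CpG-rich. A list of other homeobox genes gave 25 members among its 85 CpG-rich genes, and a list of further developmental factor families 17 among 127. The 3 lists thus covered 59 of the 125 (47.2%), against 3.61% of all CpG-rich genes. Over all their genes, CpG-rich or not, the lists beyond Hox gave 50 of 151 (33.1%) and 41 of 205 (20%) without a listed base. These shares lay on either side of the 28.7% of all genes. The lists beyond Hox were drawn up after the values had been seen. Pou4f1, a factor of sensory neurons, had a ratio of 0.968 and its nearest listed base 9702 bp from the 5′ end in replicate 1 and 5992 bp in replicate 2. Nkx2-4 had a ratio of 0.915, with the nearest base at 1170 bp in replicate 1 and 31601 bp in replicate 2. Gbx2, a factor of the midbrain and hindbrain border, had 0.883, and Six2, a factor of kidney progenitors, 0.861. Hoxa5, Hoxa4, Hoxa13 and Hoxd8 had ratios of 0.886, 0.867, 0.859 and 0.852. Among the Hox genes, Hoxa10, Hoxa7, Hoxb5, Hoxc5 and Hoxd1 had a listed base, and Hoxa7 was the most firmly listed, with 1052 bases in replicate 1 and 1190 in replicate 2.

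Other CpG-rich members were not patterning factors. Rbmxl2 had a ratio of 1.08 and its nearest listed base at 1575 and 1626 bp. Dio3, the enzyme that inactivates thyroid hormone, had a ratio of 0.916 and its nearest listed base at 6146 and 6154 bp. Sycp1 and Ddx4 of the male germ cell list were also CpG-rich. Ddx4, an RNA helicase of germ cells, had a distal peak with a height of 26.3 in replicate 1 and 21.1 in replicate 2, on the authors' scale of peak height. Of the 125, 105 had over 90% of words in a single copy, and 11 had no single-copy word at all. Those with none included the histone genes Hist1h2bq, Hist1h2ao, Hist1h2ap and Hist1h2br and the duplicated genes Entpd4 and Entpd4b. The number of CpG-rich genes depended on the library. Replicate 2 alone left 3.89% of its empty genes CpG-rich, against 2.13% for replicate 1 alone, and replicate 2 had 41.4 Mb of listed bases on the autosomes against 55.2 Mb in replicate 1. The part of that difference in the count was not tested.

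Members lay more often in repeated and multicopy sequence. Repeat-masked letters filled a median of 18.3% of the member window and 12.4% of the other windows. Every 10th 31-base word of each window was looked up in the whole assembly. The median share in a single copy was 93.9% in members and 99.0% in other genes, and it was under 50% in 943 members (15.8%) against 176 other genes (1.19%). No word at all was in a single copy in 222 members and 1 other gene. The major urinary proteins and lipocalins had a family median of 17.2%, the secretoglobins 32.8%, and the Gm-numbered genes 69.7%, whereas olfactory receptors stood at 95.0% and taste receptors at 99.2%. Vomeronasal type 1 and type 2 receptors lay between, at 75.5% and 75.25%. Their members had a median of 74.2% in both families. The 13 and 7 listed genes of these families had medians of 90.4% and 94.95%. Reads from duplicated sequence have no single place in a genome, and the labels do not say how the authors' alignment treated them. An empty window in such sequence therefore cannot be told apart from one whose reads were dropped. Distal peaks in duplicated surroundings carry the same limit, and single-copy words were counted in the promoter windows only. The CpG pattern held in single-copy sequence. Among windows with over 90% single-copy words, 85.4% of genes with a ratio below 0.1 and 1.20% of those at 0.8 and over had no listed base. Uniqueness also went with the share among CpG-poor genes. Of genes with a ratio below 0.3, 98.4% had no listed base where under 10% of words were in a single copy, and 62.1% where at least 90% were.

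**Figure D3:**
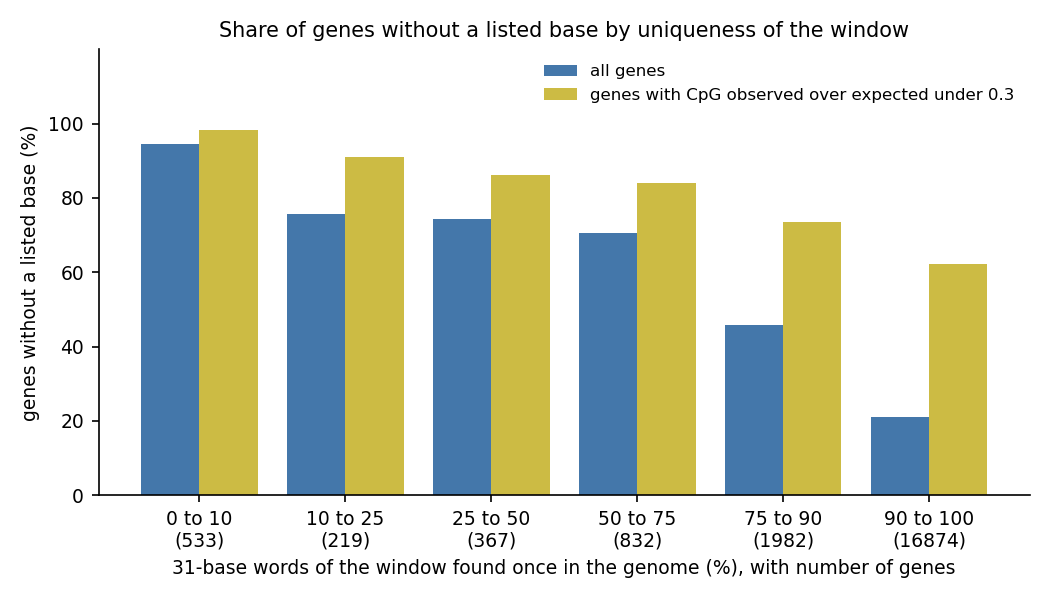
Bars give the percentage of genes without a listed base (y axis) by the share of 31-base words of the window found in a single copy in the genome (x axis), for all genes and for genes with a CpG ratio below 0.3. Over all genes the share is 94.6% in the least unique class and 20.9% in the most unique one, and CpG-poor genes lie above all genes in each class.

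The genes themselves were short and simply annotated. Median length was 7440 bp in members and 24785 bp in other genes, with medians of 2 and 5 transcripts. A single transcript was annotated for 38.8% of members and 11.5% of other genes, and a single exon at most for 11.9% and 3.05%. Since any transcript start could bring in a listed base, a gene with few transcripts was searched over less sequence. Of genes with 1 transcript 57.6% were members, and of genes with 11 or more 1.86%. Another gene's start lay within 1000 bp of the 5′ end in 6.98% of members and 29.7% of the others. A listed base at such a neighbouring start can itself exclude a gene, so this difference is partly fixed by the rule. Of the members, 16 carry a symbol that a second gene record also has, among them Jakmip1, Dpep2 and Arhgap26, so the rule speaks of that record's starts only.

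Members stood side by side along the chromosomes. With the genes ordered by 5′ end, the next gene was also a member for 57.6% of members and for 17.1% of other genes. The members formed 2540 runs. A run of 1 gene held 1679 members (28.1%), 272 runs of 5 or more held 2833 (47.4%), and 95 runs of 10 or more held 1694 (28.4%). The longest run had 106 genes on chromosome 7, from Igsf23 to Vmn1r183, over 4102 kb, of which 65 were vomeronasal type 1 receptors and 35 Gm-numbered genes. The next had 45 genes on chromosome 14, from Mat1a, a methionine-metabolism enzyme of liver, to Gm8126, with 38 Gm-numbered genes. A run of 42 on chromosome 8 from Defb14 to Defa34 held 30 defensins. A run of 37 on chromosome 17 from Olfr125 to Esp1, a secreted pheromone peptide, held 15 olfactory receptors. A run of 36 on chromosome 2 from Olfr1053 to Olfr1107 held 35. Genes with a listed base, the more numerous set, were in runs of their own kind of 5 or more in 80.1% of cases, and their longest unbroken run had 49 genes. Chromosome 7 had the highest share of members, 41.0%, and chromosome 14 followed with 40.2%. Chromosome 12 had the lowest, 17.9%, and no nose receptor among its members.

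Members alone between listed genes were unlike those in long runs. Nose receptors made up 2.44% of members alone and 44.8% of those in runs of 10 to 49. The median CpG ratio was 0.226 in members alone and 0.114 in runs of 10 to 49, and the share with a distal peak nearby was 76.8% and 72.5% in the 2 libraries for members alone, against 15.9% and 16.6% in those runs. In the run of 106 genes it was 3.77% and 1.89%, and the median window had 49.1% repeat-masked letters and 1.52% single-copy words.

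**Figure D4:**
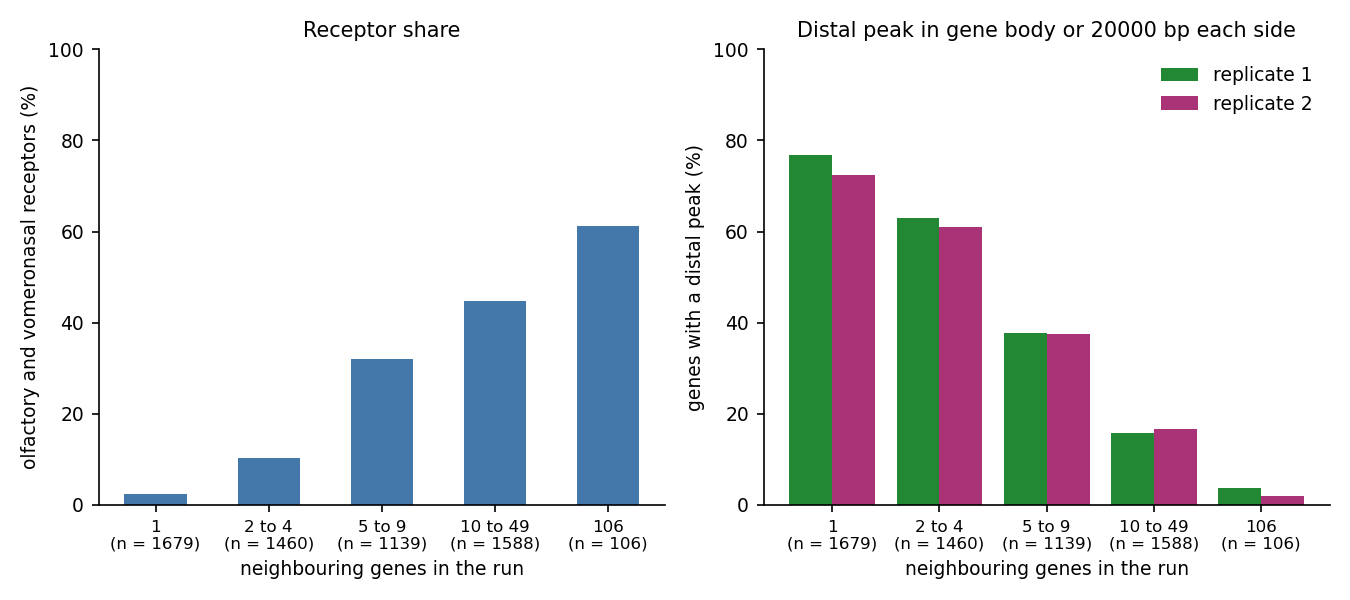
The left panel gives the percentage of members that were olfactory or vomeronasal receptors, and the right panel the percentage with a distal peak in the gene body or 20000 bp each side in each library, by the number of neighbouring members in the run (x axis, with the number of members). Receptors are 2.44% of members standing alone and 61.3% in the run of 106, and distal peaks run the other way.

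Open sites away from starts were also scarcer around members. Of members, 48.5% had a nearby distal peak in replicate 1 and 46.9% in replicate 2, against 81.2% and 76.3% of genes with a listed base. The gap between the sets was thus larger than the gap between the libraries. Counted within a fixed 50000 bp of the 5′ end, which takes gene length out, the shares were 62.1% and 61.1% in members and 89.4% and 86.2% in the others. The median distance from the 5′ end was 28827 and 30537 bp in members and 13482 and 17183 bp in the others. Listed bases of any kind came closer, with a median of 11440 bp in replicate 1 and 11984 bp in replicate 2. The nearest was within 2000 bp for 399 members in replicate 1 and 346 in replicate 2, and over 100000 bp away for 343 and 404. In both libraries 2552 members (42.7%) had such a peak, and in neither 2830 (47.4%). The split followed the families. Nose receptors had a distal peak in 13.6% and 15.3% of cases, with median distances of 135327 and 114606 bp. CpG-rich members reached 74.4% and 69.6%, against 83.5% and 79.1% of the other CpG-rich genes. Members under no symbol pattern reached 73.4% and 69.8%. These lay close to the 71.8% and 67.8% of all genes, members included, and below the 81.2% and 76.3% of genes with a listed base.

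**Figure D5:**
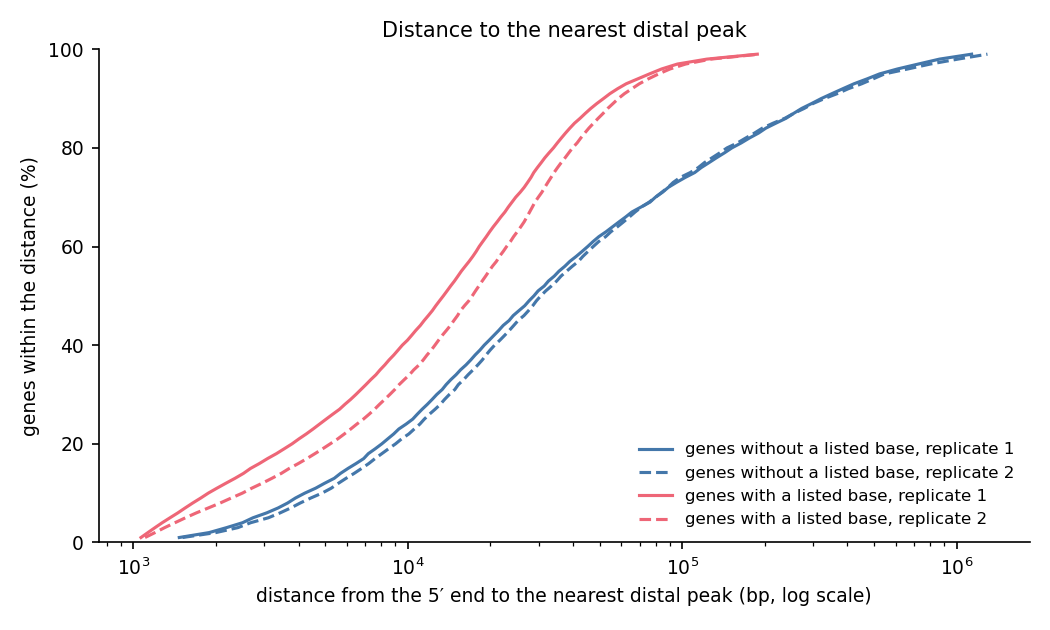
Curves give the cumulative percentage of genes (y axis) with a distal peak within a given distance of the 5′ end (x axis, bp, log scale) for genes without and with a listed base, solid for replicate 1 and dashed for replicate 2. The medians are 28827 and 30537 bp without and 13482 and 17183 bp with a listed base, and the upper part of the curve for genes without one extends much farther.

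Some members lay amid many distal peaks. Dnah2 had 19 in replicate 1 and 18 in replicate 2, of which 8 and 7 lay in the gene body. Arhgap15, a GTPase-activating protein mostly of blood cells, had 23 and 17, nearly all in its body of 647.1 kb. Pebp4 had 20 and 17. A second record of Arhgap26 had 22 and 14. Gucy2g, a guanylyl cyclase, had 13 and 12. Col22a1, a collagen of tissue junctions, had 13 and 11, and Tg, the thyroglobulin of the thyroid, 11 in each. Pla2g5, a secreted phospholipase, had 17 and 10, and Dnase2b, a nuclease of the lens, 10 and 12, of which 2 and 3 lay in the gene body. The windows of these 9 were CpG-poor, with ratios between 0.107 for Tg and 0.271 for Arhgap26. That these peaks lay away from the starts of these gene records follows from the rule and from the definition of a distal peak. Which gene the peaks serve was not tested. At the other extreme, Gm3139, Gm3147, Gm6509 and Gm6205 on chromosome 5 had their nearest listed base 841306, 811473, 803836 and 779433 bp away in replicate 1, and 841355, 894492, 886855 and 862452 bp in replicate 2. Zfp966 on chromosome 2 followed with 776814 and 776796 bp. At most 1.52% of the words in these 5 windows were in a single copy.

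Near the limit of the rule the values run on without a gap. Triml2 was just inside, with its nearest listed base 1001 bp from a start in replicate 1 and 1011 bp in replicate 2. Trim29 followed with 1002 and 1374 bp, and Cldn20 with 1039 and 1003 bp. Just outside were Aqp4, the water channel of astrocytes, the chemokine Ccl9 and the lectin Clec4a2, each with 1 listed base in replicate 1, at rates of 0.0468, 0.0489 and 0.0463, and none in replicate 2. Of the genes outside, 148 (0.998%) had at most 20 listed bases over both libraries, and of the members 82 had a listed base within 1100 bp. No footprint and no peak of the broader set touched a member window in either library, as the rule would give for peaks, each of which holds a listed base.

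Short sequence motifs also differed in frequency. They were searched on both strands of the 250 bp before the 5′ end. The TATA box core TATAAA was in 21.8% of members and 7.45% of other genes, with 11.6% over all promoters. Placed 45 to 16 bases before the start on the gene's strand, it was in 6.16% of members and 1.31% of the others, and 2.70% of all. The GC box GGGCGG of Sp1 was in 10.6% and 51.3%, with 39.6% over all. The ETS core CCGGAAG was in 2.04% and 10.7%, with 8.21% over all. The homeodomain core TAATTA was in 9.80% and 2.93%, with 4.90% over all, and reached 21.7% in the nose receptor members. CCAAT was in 36.6% of members and 35.1% of the others, with 35.5% over all. Among CpG-rich genes alone, TATAAA was in 12.8% of members and 4.59% of the others. There the GC box was in 60% and 68.9%, the ETS core in 3.2% and 12.95%, and CCAAT in 40% and 33.4%. A match is letters only, and AT-rich words are more frequent in AT-rich windows. The part of base composition in these differences was not tested.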

How the data were processed

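DNase-seq files of 2 libraries were used, 1 per animal. Per the labels, coordinates are on mm10. The names and versions of the aligner and callers are not stated in the labels or file descriptions used here. The authors deposited a q-value, the false discovery rate per base, for bases under 0.05, and 2 peak sets per library whose value is a signal, the peak height, on a scale that is not stated. Footprints carry the constant 0.01, and their positions alone were used. Each peak set comes from a single library, per the deposited descriptions. All 21 chromosome names matched GRCm38.p6, so genes of GENCODE M21 and RefSeq's sequence of that build were used. Distances, runs, CpG, repeat and word counts were computed with Python 3.11.15, numpy 2.4.6, pandas 2.3.3 and numba 0.67.0, and tested on simulated data (50 of 50 planted windows and 300 of 300 interval sets came out right). Repeats are the lower-case letters of the reference. Words of 31 bases were taken every 10 bases, and copies on both strands counted.

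Families came from 58 symbol patterns, first match first, and tissues from 18 gene lists. The members and lists were chosen with earlier results of these data known. Genes named were, for each family, up to 3 members in its longest run and up to 3 listed genes of lowest rate, then the 10 CpG-rich members of highest ratio with over 90% single-copy words, the 10 members with most nearby distal peaks in the poorer library, the 5 longest runs, the 5 members farthest from a listed base, the genes at the threshold, and members of the tissue lists. Other genes named were chosen after their values were seen. Some genes and sequences that these rules pick are not reported here. Alternatives changed the window (500 and 2500 bp), the starts, the rate (0.001), the peak sets, the library and the genes included. Chromosomes X and Y were left out by the rule.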

Additional observations from a re-analysis of the deposited data

How the results depend on the processing

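Values are given in the order receptor share of members, share of members in runs of 5 or more, median CpG ratio, CpG-rich share, median repeat-masked share, share of windows under 50% single-copy words, and share with a nearby distal peak (mean of the libraries, 47.7% as reported), and only those that moved by more than the SD between the libraries are named. The number of members stayed within 1.5 times of 5972 under every alternative to the rule, between 5036 and 7224. With a window of 2500 bp the receptor share was 24.6%, the run share 42.7%, the CpG ratio 0.156, the low-uniqueness share 17.4% and the distal share 43.1%, and with 500 bp the last 2 were 14.9% and 49.2%. With the 5′ end alone the receptor share was 19.7%, the run share 44.3%, the CpG ratio 0.170, the low-uniqueness share 13.9% and the distal share 52.5%, and with coding transcripts alone the run share was 45.6% and the distal share 49.5%. With bases under 0.001 the receptor share was 20.1%, the CpG ratio 0.173, the CpG-rich share 3.65%, the masked share 17.7%, the low-uniqueness share 14.0% and the distal share 50.98%. With no peak of the stricter set these were 19.7%, 0.176, 4.01%, 17.6%, 13.7% and 51.7%, and with no peak of the broader set the run share was 48.9%. Without Gm-numbered genes the run, masked and distal shares were 46.3%, 17.7% and 50.1%. Without nose receptors the run share was 36.5%, the CpG ratio 0.188, the masked share 17.4% and the distal share 57.2%, and with over 90% single-copy words they were 35.2%, 0.187, 15.5% and 59.5%. Over 300 bp the CpG-rich share was 4.15% and the masked share 9%. Words of 24 bases gave a low-uniqueness share of 18.5%, and runs that may hold 1 other gene a run share of 58.1%. The distal share was 61.2% with the broader peak set, 64.6% with 50000 bp each side, 31.2% with peaks over 5000 bp from a start and 61.6% with a fixed 50000 bp of the 5′ end. The cause of these moves was not tested. Leaving out 1 library gave 6139 to 6795 members, receptor shares of 20.2% to 22.3%, run shares of 46.9% to 48.2%, CpG ratios of 0.163 to 0.173, CpG-rich shares of 2.13% to 3.89%, masked shares of 17.7% to 18.3%, low-uniqueness shares of 14.3% to 15.5% and distal shares of 48.5% to 49.4%. On leaving out a library, the CpG-rich share, 2.09% with both, was the only value moved by over 1.5 times, without replicate 1. Other alternatives above moved values by over 1.5 times too. Among them were the CpG-rich share with bases under 0.001, with no stricter peak and over 300 bp. The masked share over 300 bp and the distal share with peaks over 5000 bp from a start also moved that far.

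No paired analysis was possible because there is a single group. Depth is unknown, so an empty window does not show that a promoter is closed, and windows without single-copy words say nothing of accessibility. Families rest on symbols, and some patterns, among them the ribosomal, receptor-subunit, cystatin and apolipoprotein ones, take in some unrelated genes. The reference is of C57BL/6J origin, whereas the animals also carry a CAST/EiJ genome.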

Other observations

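Solute carriers and potassium channels lay below the 28.7% of all genes without a listed base, with 77 of 358 (21.5%) and 13 of 92 (14.1%). The 77 solute carriers included Slc12a1 and Slc12a3, the salt cotransporters of the renal tubule, Slc5a2, a glucose transporter, and Slc22a6 and Slc22a8, which carry organic anions. Of the 77, 72.7% in replicate 1 and 75.3% in replicate 2 had a nearby distal peak. Over all genes the shares were 71.8% and 67.8%, and over genes with a listed base 81.2% and 76.3%. The 13 potassium channel genes included Kcnj1 of the kidney, Kcnj13 of the retinal pigment epithelium, Kcnk18 of sensory neurons and the accessory subunits Kcne1, Kcne2 and Kcne4, and 10 of the 13 had a nearby distal peak in each library. These names were chosen after their values were seen.

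The 990 genes with a base listed in a single library were intermediate in more than CpG. Their median length was 14486 bp, between 7440 bp in genes empty in both libraries and 24785 bp in all genes with a listed base, and 24.8% had a single transcript. Of these 990, 145 were CpG-rich (14.6%).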
